A study of Homo sapiens with 15 samples.

Results

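A set of 45 genes of the lysosome and of the TFEB family of transcription factors was examined in RNA-seq from 12Z cells, an immortalized line of human endometriotic epithelial cells. Members were taken from a fixed list of symbols and found by gene identifier among the 60617 identifiers in each count file, and all 45 were found. They comprise 18 hydrolases (8 proteases, 7 glycosidases and 3 lipid hydrolases), 14 subunits of the proton pump, 9 proteins of the lysosomal membrane and lumen, 3 transcription factors (TFEB, TFE3 and MITF) and 1 autophagy receptor (SQSTM1). All 45 averaged 1 count or more over the libraries, the filter that left 23184 genes for testing.

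The 15 libraries fall into 5 groups of 3. The groups are siRSAD2 with the PIK3CA H1047R vector and insulin, siRSAD2 with the H1047R vector and vehicle, siRSAD2 with the empty vector and insulin, siRSAD2 with the empty vector and vehicle, and siNT (non-targeting siRNA) with the empty vector and vehicle. siRSAD2 is a pool of siRNAs against RSAD2, the gene for Viperin, and it was given in every group except siNT, so insulin and H1047R are compared here only in cells that received it. The pBabe plasmid, empty or coding for the activated catalytic subunit of phosphatidylinositol 3-kinase, was transfected transiently into cells that keep their own PIK3CA. Serum was then removed for 4 hours, and all groups received serum-free medium, with 100 nM insulin or its vehicle, for 24 hours.

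Lysosomes degrade proteins, glycans and lipids with hydrolases that work at acid pH. The acid is made by the vacuolar proton pump, whose membrane sector (V0) carries protons driven by the ATP-splitting sector (V1). TFEB, TFE3 and MITF are related factors that bind the E-box sequence CACGTG and activate many lysosomal and autophagy genes. When nutrients and growth factors are plentiful, the kinase mTORC1, which insulin activates, phosphorylates TFEB and holds it in the cytoplasm, so the amount of TFEB mRNA alone does not show how active the factor is. The comparisons ask how siRSAD2, insulin and H1047R changed the mRNA of these genes.

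Each library held between 16.1 and 39.7 M counts assigned to genes. Levels are given as CPM, counts per M of the TMM-scaled library size, and fold changes are log2 values with their standard errors (SE) from edgeR's quasi-likelihood test, called at a Benjamini-Hochberg adjusted p below 0.05 over all genes tested. RSAD2 was at 0.0768 to 1.41 CPM in the siRSAD2 libraries, against 3.0 to 3.69 CPM in siNT libraries. With siRSAD2 its means were 0.837 (insulin) and 0.899 CPM (vehicle) with H1047R. With the empty vector they were 0.331 (insulin) and 0.325 CPM (vehicle). These means rest on 2 to 56 counts per library, and the part of the remaining RSAD2 in the H1047R comparisons was not tested. PIK3CA was at 160 to 223 CPM in libraries with the H1047R vector, against 76.4 to 109 CPM without it. Of the 6 epithelial markers, the keratins were present but 2 (EPCAM and CDH1) averaged under 1 CPM, while each of the 6 stromal markers (VIM, THY1, LUM, PDGFRB, PDGFRA and DCN) averaged above it. Of the 8 macrophage and leukocyte markers, 6 averaged under 1 CPM, and their sum was 4.16 to 6.3 CPM in 14 libraries and 12.2 CPM in siRSAD2 empty vehicle library 3, where PTPRC was at 9.03 CPM. That library also had the most unmapped reads, 8.31%, and together with siRSAD2 empty insulin libraries 2 and 3 it stood apart from its group. The share of counts on the forward strand, where a stranded library should hold few, was 6.503 to 6.95% in 7 libraries (the 6 with the H1047R vector and siRSAD2 empty insulin library 3) and 6.125 to 6.264% in the other 8.

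The members span a wide range of levels. Per kilobase of each gene's main transcript, CD63, a tetraspanin of late endosomes and lysosomes, averaged 509 CPM per kb over all libraries. PSAP, the precursor of the saposins that help lipid hydrolases, averaged 421 CPM per kb. GRN, which codes for progranulin, averaged 186 CPM per kb and NPC2, a luminal cholesterol carrier, 175 CPM per kb. The proton pump subunits lay between 19.5 and 118 CPM per kb, closer together than the hydrolases at 3.16 to 157 CPM per kb. The lowest members were TFEB at 1.76, MITF at 2.97 and GAA, the glucosidase that degrades glycogen, at 3.16 CPM per kb. TFE3 was the most abundant of the 3 factors, at 24.7 CPM per kb. Libraries of a group agreed closely, with a median coefficient of variation of 1.89 to 11.6% by gene (median 3.61%), the highest being that of TFEB, which had 72 to 166 counts per library. The ratio of the highest to the lowest group mean reached 1.5 in 3 members: CTSB (2.0), SCARB2 (1.67) and TFEB (1.58). In pump subunits that ratio was 1.04 to 1.27.

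Because TFEB, TFE3 and MITF bind CACGTG, the letters were searched for in the RefSeq promoter windows (GRCh38.p14, the same sequence as hg38), which run from 250 bases before to 50 after each gene's start. A window was matched for 34 of the 45 members. CACGTG, which reads the same on both strands, stood in 10 of these 34 (29.4%), against 8.8% of the 27305 genes with a window. The longer palindrome TCACGTGA, which contains it, stood in 6 of the 34 (17.6%), against 1.2% of all genes with a window. A gene with more than 1 window was counted where any of them held the letters. By role, CACGTG was found for 4 of the 14 hydrolases with a window, 3 of 9 pump subunits and 3 of 7 membrane and lumen proteins. It was found for none of the 3 factors themselves. The sites below include those of MCOLN1, CTSA, CTSD and CD63, which were called lower with insulin on average. LAMP1, GAA, ATP6V0D1 and ATP6V1G1 were not called. They are divided by call alone, and a member not called may still have changed. Sites of NEU1 and ATP6V0B, also not called, are not printed. Capitals mark TCACGTGA or, where only that is present, CACGTG, read 5′ to 3′ on the gene's strand.
MCOLN1, farther site: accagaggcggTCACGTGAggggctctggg
MCOLN1, nearer site: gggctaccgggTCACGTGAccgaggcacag
CTSA: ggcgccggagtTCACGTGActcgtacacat
CTSD: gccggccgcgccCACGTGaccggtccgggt
CD63: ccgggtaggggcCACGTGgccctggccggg
LAMP1: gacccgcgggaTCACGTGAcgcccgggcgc
GAA: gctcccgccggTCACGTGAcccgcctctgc
ATP6V0D1: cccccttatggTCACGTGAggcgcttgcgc
ATP6V1G1: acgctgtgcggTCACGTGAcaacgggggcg

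The MCOLN1 sites lie at chr19:7522571-7522600 and chr19:7522598-7522627 on the plus strand, and their CACGTG begins 41 and 14 bases before the gene's start. The CTSA site is at chr20:45891298-45891327 (plus), 25 bases before the start, and a further CACGTG begins 42 bases before it. The CTSD site is at chr11:1763957-1763986 (minus), 47 bases before the start, and the CD63 site at chr12:55729172-55729201 (minus), 180 bases before it. The LAMP1 site is at chr13:113297199-113297228 (plus), 28 bases before the start and 1 of 6 CACGTG matches in that window. The GAA site is at chr17:80101538-80101567 (plus), the ATP6V0D1 site at chr16:67481199-67481228 (minus) and the ATP6V1G1 site at chr9:114587699-114587728 (plus), 31, 59 and 58 bases before the start. The GAA window holds a further TCACGTGA, whose CACGTG begins 76 bases before the start. A match describes these letters only, and binding was not measured.

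**Figure D1:**
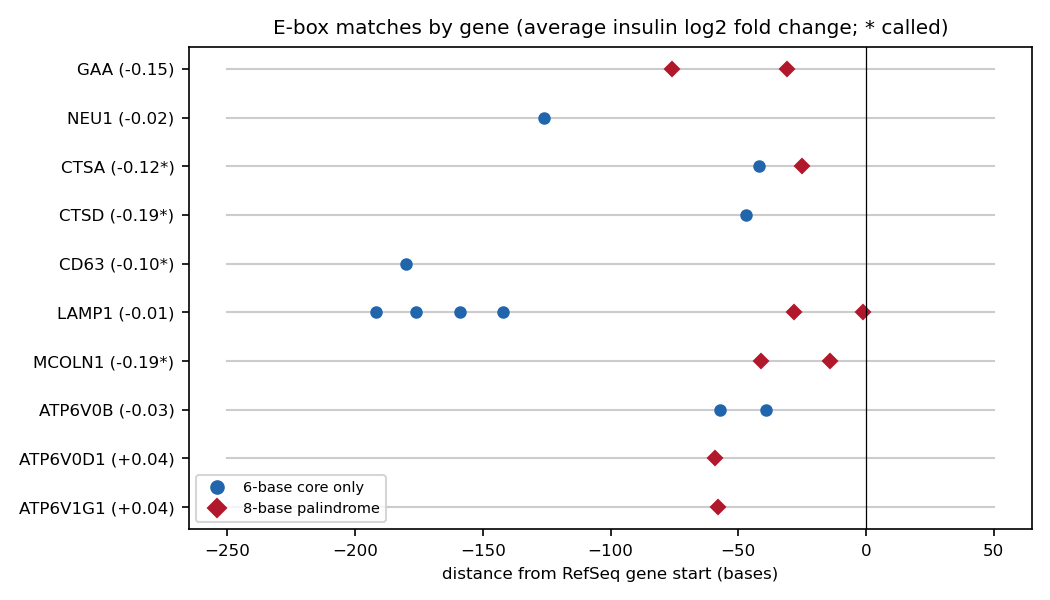
Position of each CACGTG match (first base, in bases from the RefSeq gene start) in the 10 members whose window holds one, with circles for the 6-base core alone and diamonds for the 8-base palindrome. The number beside each gene is its average insulin log2 fold change; CTSA, CTSD, CD63 and MCOLN1 were called lower, the other 6 were not called.

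The transcription factors did not move together under insulin. With siRSAD2 all 3 had negative changes, called for TFEB and MITF and not for TFE3 (-0.05 ± 0.05, adjusted p = 0.547). TFEB (chr6:41683978-41736259) was at 5.33, 4.22 and 4.82 CPM with siRSAD2, H1047R and insulin, 3.0, 3.76 and 3.75 CPM with siRSAD2, H1047R and vehicle, 5.24, 4.55 and 4.41 CPM with siRSAD2, empty vector and insulin, 3.21, 3.03 and 2.85 CPM with siRSAD2, empty vector and vehicle, and 4.93, 5.03 and 3.48 CPM in siNT. Every insulin library thus lay above every vehicle library of siRSAD2 cells, and each siRSAD2 empty vehicle library lay below each siNT library. In bulk RNA, fewer cells of a type and less RNA per cell cannot be told apart. Averaged over both vectors, TFEB rose with insulin by 0.55 ± 0.12 (adjusted p = 0.0016), with 0.65 ± 0.16 in empty-vector cells (adjusted p = 0.0139) and 0.45 ± 0.16 in H1047R cells, which was not called (adjusted p = 0.187). The call in empty-vector cells was lost in 4 of 24 alternatives, among them leaving out siRSAD2 empty vehicle library 3 or siRSAD2 empty insulin library 1. With siRSAD2 it fell by 0.57 ± 0.16 against siNT (adjusted p = 0.0112). That call was lost without siNT library 4 or 5, and over the alternatives the adjusted p ran between 0.00314 and 0.0755. The insulin comparison in empty-vector cells shares the siRSAD2 empty vehicle libraries with the siRSAD2 comparison, so the opposite signs are not independent.

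TFE3 (chrX:49028726-49043410) had the opposite sign to TFEB under insulin. It was at 77.9, 75.1 and 79.2 CPM with H1047R and insulin, against 80.5, 80.9 and 79.6 CPM with H1047R and vehicle, and at 73.3, 74.9 and 71.0 CPM with empty vector and insulin, against 83.5, 83.9 and 90.4 CPM with empty vector and vehicle. siNT libraries had 93.2, 86.9 and 87.0 CPM. The insulin and vehicle libraries did not overlap with either vector, but the gap was small in H1047R cells. In empty-vector cells TFE3 fell by 0.23 ± 0.05 on the log2 scale (adjusted p = 0.00416), and in H1047R cells the change was -0.05 ± 0.05 (adjusted p = 0.845). Of the members it had the smallest unadjusted p for the difference between vectors, 0.0191 for a difference of 0.18 ± 0.07, but this did not survive adjustment (adjusted p = 0.698). Averaged over vectors, TFE3 fell by 0.14 ± 0.04 (adjusted p = 0.01).

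MITF (chr3:69739456-69968336) was at 12.5, 12.8 and 12.9 CPM with H1047R and insulin, 13.9, 13.2 and 13.9 CPM with H1047R and vehicle, 12.5, 14.2 and 14.5 CPM with empty vector and insulin, 14.1, 12.6 and 14.1 CPM with empty vector and vehicle, and 17.6, 19.1 and 16 CPM in siNT. All 12 siRSAD2 libraries lay below the siNT libraries. MITF fell by 0.37 ± 0.09 with siRSAD2 (adjusted p = 0.00223), a call kept under the 23 alternatives run at that threshold, and its average insulin change was -0.05 ± 0.06 (adjusted p = 0.781). SQSTM1 (chr5:179806398-179838078), whose protein p62 carries ubiquitinated cargo into autophagosomes, was at 155, 154 and 165 CPM with H1047R and insulin, against 182, 180 and 167 CPM with H1047R and vehicle, and at 170, 158 and 159 CPM with empty vector and insulin, against 188, 179 and 184 CPM with empty vector and vehicle. siNT libraries had 162, 189 and 179 CPM, which overlap the siRSAD2 empty vehicle libraries. SQSTM1 fell by 0.17 ± 0.04 with insulin on average (adjusted p = 0.00267), with like values in the 2 vectors: -0.16 ± 0.05 in H1047R cells, which was not called (adjusted p = 0.133), and -0.18 ± 0.05 in empty-vector cells (adjusted p = 0.0362). The call in empty-vector cells was lost in 7 of 24 alternatives, among them leaving out library 1 or 3 of siRSAD2 empty vehicle or library 2 or 3 of siRSAD2 empty insulin.

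**Figure D2:**
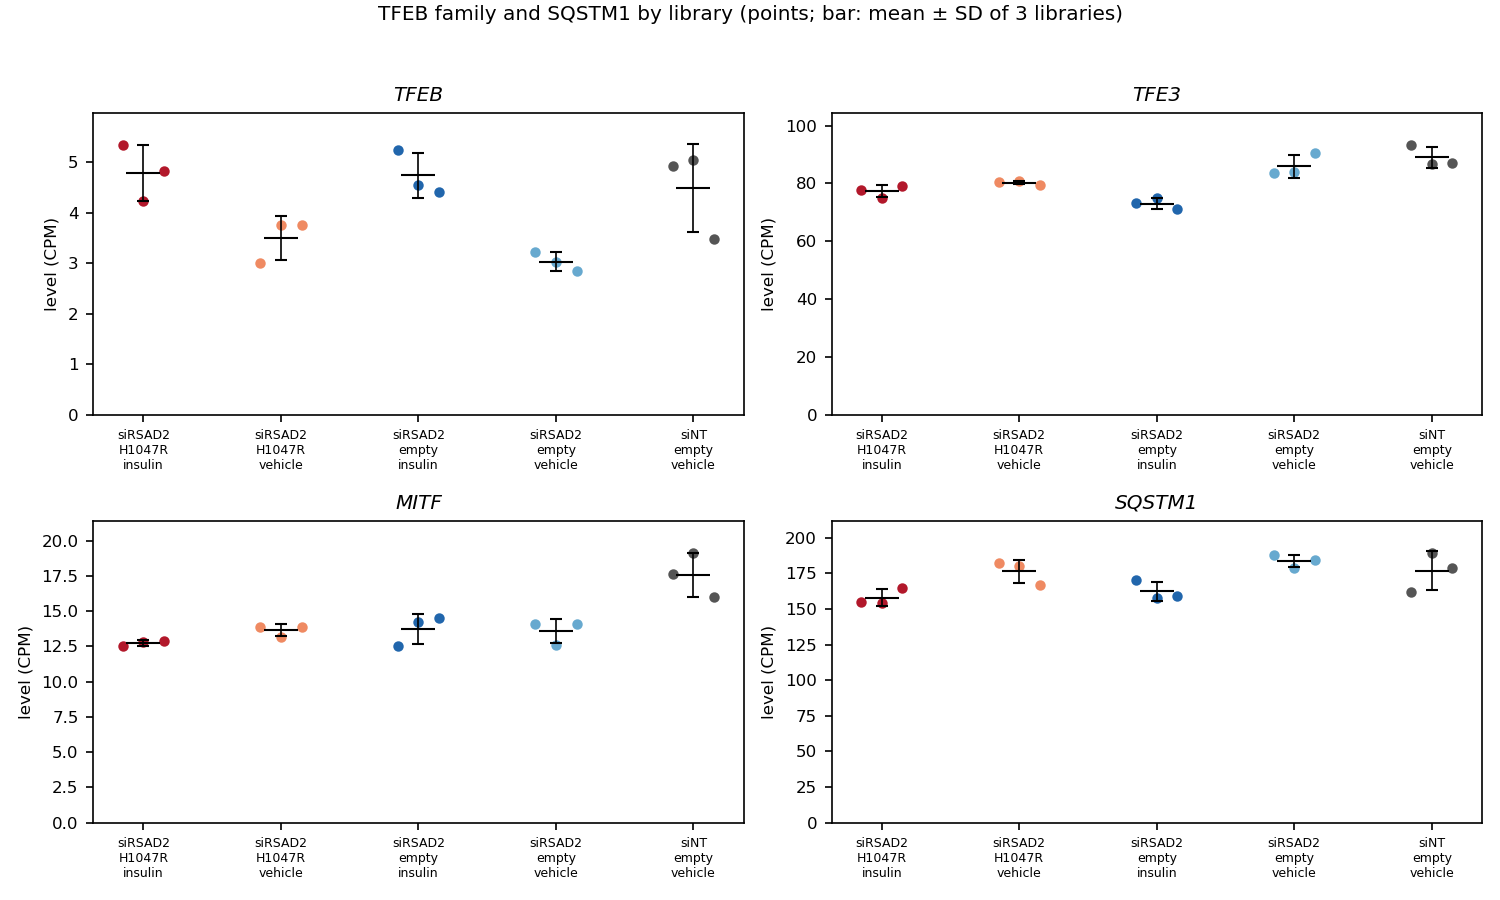
Level in CPM of TFEB, TFE3, MITF and SQSTM1 in each of 15 libraries (points) by group, with the mean and SD of 3 libraries. TFEB is higher in the insulin groups of siRSAD2 cells (4.22 to 5.33 CPM) than in their vehicle groups (2.85 to 3.76 CPM), while MITF is highest in siNT.

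With siRSAD2, in empty-vector cells without insulin, 15 of the 45 members changed against siNT, 5 higher and 10 lower. Of all genes tested, 9.81% were called higher and 9.73% lower. Of genes averaging at least 10 CPM 34.3% were called. Of the 44 members at that level 14 (31.8%) were called, so the number of members that changed was close to that background. A floor of 10 CPM does not match genes to the members' levels, whose median was 105 CPM. The median over all 45 was -0.03, against 0.02 over all genes. The calls ran in both directions within the roles: 3 of 18 hydrolases were higher and 2 lower, 1 of 14 pump subunits was higher and 2 lower, 1 of 9 membrane and lumen proteins was higher and 4 lower, and 2 of the 3 factors were lower. Marker sums moved with the siRNA as well, the stromal markers at 2520 to 2630 CPM in siRSAD2 and 3200 to 3260 CPM in siNT libraries, and the epithelial markers at 1900 to 2040 CPM in siRSAD2 and 2350 to 2390 CPM in siNT libraries. The macrophage and leukocyte markers summed to 4.76 to 12.2 CPM in siRSAD2 and 4.35 to 6.26 CPM in siNT libraries. The part of these markers in the results was not tested. RSAD2 was targeted with the same siRNA pool throughout, so loss of RSAD2 and other effects of the pool cannot be told apart.

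CTSB and SCARB2 had the largest changes with siRSAD2. CTSB, a cysteine protease, was at 153, 160 and 152 CPM with siRSAD2, against 244, 253 and 250 CPM with siNT. SCARB2, also named LIMP-2, which carries the enzyme glucocerebrosidase to lysosomes (chr4:76158737-76234536), was at 242, 236 and 228 CPM with siRSAD2, against 375, 373 and 383 CPM with siNT. Neither pair of groups overlapped, and the other siRSAD2 groups stayed low too, at 118 to 153 CPM for CTSB and 221 to 243 CPM for SCARB2. Both fell by 0.68 on the log2 scale, with an SE of 0.05 for CTSB (adjusted p = 1.14e-11) and 0.04 for SCARB2 (adjusted p = 3.83e-13), and both kept the call under the 23 alternatives run at that threshold and at a threshold of 0.001.

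The other membrane and lumen proteins that fell did so by less. CD63 was at 509, 528 and 513 CPM with siRSAD2, against 599, 612 and 612 CPM with siNT (-0.23 ± 0.04, adjusted p = 7.56e-05). LAMP2, a heavily glycosylated protein that lines the lysosomal membrane, was at 251, 254 and 251 CPM with siRSAD2, against 286, 296 and 302 CPM with siNT (-0.23 ± 0.04, adjusted p = 0.000109). NPC2 was at 139, 152 and 143 CPM with siRSAD2, against 171, 177 and 170 CPM with siNT (-0.25 ± 0.05, adjusted p = 0.000202). None of the 3 had overlapping groups. LAMP1, the partner of LAMP2, was at 402, 412 and 395 CPM with siRSAD2, against 380, 378 and 376 CPM with siNT, and was not called.

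Among hydrolases, LIPA, the acid lipase that splits cholesteryl esters and triglycerides, was higher at 258, 250 and 251 CPM with siRSAD2, against 206, 217 and 207 CPM with siNT (0.27 ± 0.04, adjusted p = 1.3e-05). CTSL, a further cysteine protease, was at 110, 116 and 106 CPM with siRSAD2, against 85.2, 90.6 and 99.9 CPM with siNT (0.27 ± 0.06, adjusted p = 0.00118). ASAH1, the acid ceramidase, was lower, at 61.4, 65.8 and 63.2 CPM with siRSAD2, against 77.0, 76.3 and 76.2 CPM with siNT (-0.27 ± 0.05, adjusted p = 0.00025). The 2 lipid hydrolases LIPA and ASAH1 therefore changed in opposite directions. GUSB, the glucuronidase, also rose, by 0.23 ± 0.06 (adjusted p = 0.00435), and GRN by 0.18 ± 0.06 (adjusted p = 0.0352), a call lost in 4 of 23 alternatives, those without siNT library 5 or 6 or without siRSAD2 empty vehicle library 2 or 3.

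In the proton pump, ATP6V1C1, a V1 stalk subunit, was at 148, 143 and 146 CPM with siRSAD2, against 167, 169 and 173 CPM with siNT (-0.22 ± 0.04, adjusted p = 0.000507). ATP6V0E1, a small V0 subunit, was at 137, 148 and 143 CPM with siRSAD2, against 159, 172 and 169 CPM with siNT (-0.22 ± 0.05, adjusted p = 0.00163). ATP6V0D1, the V0 subunit that joins the sectors, was higher at 81.4, 87.1 and 86.3 CPM with siRSAD2, against 77.0, 73.5 and 72.6 CPM with siNT. Its call (0.19 ± 0.07, adjusted p = 0.0491) lay at the threshold and was lost in 7 of 23 alternatives: with DESeq2 and without siNT library 4, 5 or 6, siRSAD2 empty vehicle library 2 or 3, or siRSAD2 H1047R insulin library 3. The other 11 pump subunits were not called.

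**Figure D3:**
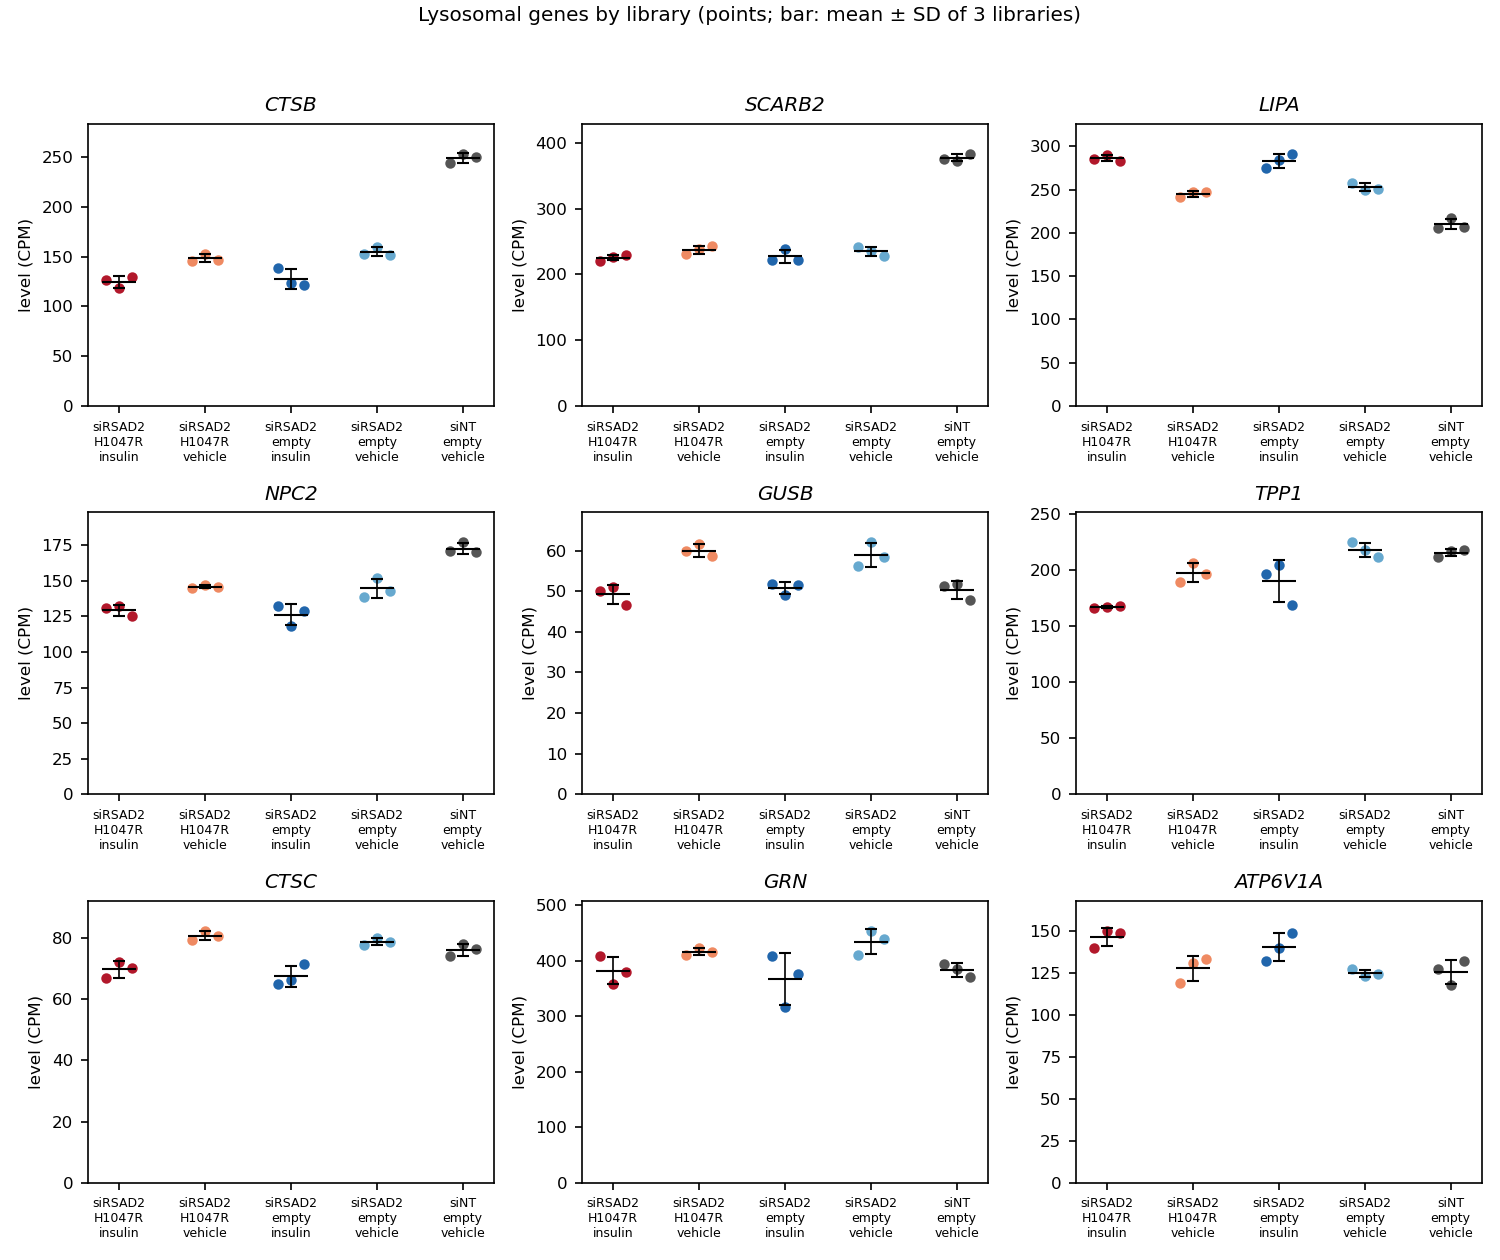
Level in CPM of 9 members in each of 15 libraries (points) by group, with the mean and SD of 3 libraries. CTSB and SCARB2 are lower in every siRSAD2 group than in siNT, and GUSB, CTSC and NPC2 are lower in the insulin groups than in the vehicle groups of siRSAD2 cells.

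Insulin, averaged over both vectors in siRSAD2 cells, changed 16 of the 45 members, 4 higher and 12 lower. Of all genes tested, 3.15% were called higher and 5.22% lower. Of genes averaging at least 10 CPM 17.0% were called, against 15 of the 44 members at that level (34.1%). These genes were not matched to the members by level above 10 CPM. Among the 18 hydrolases 6 were lower (5 of the 8 proteases and 1 of the 7 glycosidases) and 2, LIPA and CTSH, were higher. Of the 9 membrane and lumen proteins 4 were lower, and the other 2 members called lower were TFE3 and SQSTM1. None of the 14 pump subunits was lower and 1 was higher, and the median log2 fold change was 0.02 for the pump, -0.08 for hydrolases, -0.08 for membrane and lumen proteins and 0.0 over all genes. Whether the roles differ was not tested. Stromal marker sums were also lower with insulin. With H1047R they were 2220 to 2300 CPM with insulin, against 2530 to 2650 CPM with vehicle. With the empty vector they were 2070 to 2260 CPM with insulin, against 2520 to 2630 CPM with vehicle. VIM made up most of each sum. Its means were 1690 against 2010 CPM with H1047R and 1580 against 1970 CPM with the empty vector. THY1 was higher with insulin with H1047R (274 against 261 CPM) and lower with the empty vector (279 against 294 CPM). LUM was near level (213 against 212 CPM with H1047R, 235 against 236 CPM with the empty vector). PDGFRB, PDGFRA and DCN had lower means with insulin with both vectors. The part of these markers was not tested. The macrophage and leukocyte sum was 5.57 to 6.3 CPM with H1047R and insulin, against 4.16 to 4.82 CPM with H1047R and vehicle. It was 4.29 to 5.57 CPM with empty vector and insulin, against 4.76 to 12.2 CPM with empty vector and vehicle. CD14 made up most of the sums with H1047R, with means of 4.77 CPM with insulin and 3.13 CPM with vehicle. Epithelial and endothelial sums overlapped between insulin and vehicle with both vectors, the endothelial ones lying between 2.05 and 4.94 CPM in siRSAD2 libraries. When the 3 libraries that stood apart were left out together, which leaves 1 insulin library with the empty vector whose spread is taken from the other groups, 11 members were called. CTSA, CTSD, CTSH, GRN, MCOLN1 and TFE3 were then no longer called.

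The members with the clearest insulin response were CTSB, LIPA, GUSB, CTSC, TPP1 and NPC2, each called with both vectors. On average over vectors they kept the call in the 24 alternatives run at that threshold, but within a vector several did not. In empty-vector cells the call was lost in 6 of 24 alternatives for LIPA, 5 for GUSB, 5 for TPP1, 4 for NPC2, 1 for CTSB and 1 for CTSC, and in H1047R cells in 14 of 24 for NPC2, 4 for CTSC, 1 for TPP1 and none for CTSB, GUSB and LIPA. CTSB was at 126, 118 and 129 CPM with H1047R and insulin, against 146, 153 and 147 CPM with H1047R and vehicle, and at 139, 123 and 121 CPM with empty vector and insulin, against 153, 160 and 152 CPM with empty vector and vehicle. It fell by 0.27 ± 0.04 on average (adjusted p = 3.27e-06), by 0.26 ± 0.05 with H1047R and by 0.28 ± 0.05 with the empty vector. CTSC, the dipeptidyl peptidase that activates serine proteases, was at 66.8, 72.2 and 70.3 CPM with H1047R and insulin, against 79.4, 82.3 and 80.6 CPM with H1047R and vehicle. In empty-vector cells it was at 64.8, 66.1 and 71.4 CPM with insulin, against 77.6, 79.9 and 78.7 CPM with vehicle, and the average change was -0.22 ± 0.04 (adjusted p = 9.93e-05).

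TPP1, a tripeptidyl peptidase whose loss causes a neuronal ceroid lipofuscinosis, was at 166, 167 and 168 CPM with H1047R and insulin, against 190, 207 and 197 CPM with H1047R and vehicle. In empty-vector cells it was at 197, 205 and 169 CPM with insulin, against 225, 218 and 212 CPM with vehicle. The insulin groups thus lay below the vehicle groups with both vectors, and insulin library 3 was the lowest of its group. That library alone among empty-vector libraries has the higher forward-strand share. The TPP1 call in empty-vector cells was lost without it and with a term for that share. The same held for LIPA, SQSTM1 and MCOLN1, while the other members called there kept the call with the term. TPP1 fell by 0.22 ± 0.04 on average (adjusted p = 0.000126). GUSB was at 50, 51.1 and 46.5 CPM with H1047R and insulin, against 59.8, 61.6 and 58.6 CPM with H1047R and vehicle, and at 51.7, 49.1 and 51.5 CPM with empty vector and insulin, against 56.2, 62.0 and 58.4 CPM with empty vector and vehicle. It fell by 0.25 ± 0.04 on average (adjusted p = 6.3e-05).

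LIPA (chr10:89213569-89414557) moved the other way from the proteases. It was at 285, 290 and 283 CPM with H1047R and insulin, against 241, 247 and 247 CPM with H1047R and vehicle, and at 275, 284 and 291 CPM with empty vector and insulin, against 258, 250 and 251 CPM with empty vector and vehicle. No insulin library overlapped a vehicle library, and the average change was 0.19 ± 0.03 (adjusted p = 2e-05). ATP6V1A, the V1 subunit that holds the catalytic ATP site, was at 140, 150 and 149 CPM with H1047R and insulin, against 119, 131 and 133 CPM with H1047R and vehicle, and at 132, 140 and 149 CPM with empty vector and insulin, against 127, 123 and 124 CPM with empty vector and vehicle. It rose by 0.18 ± 0.04 on average (adjusted p = 0.0014) and was the only pump subunit called in any of the 3 insulin comparisons. With H1047R it was called (adjusted p = 0.0432), but that call was lost in 6 of 24 alternatives, each with 1 library left out. With the empty vector it was not called (0.17 ± 0.05, adjusted p = 0.0558).

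NPC2 was at 131, 132 and 125 CPM with H1047R and insulin, against 145, 147 and 146 CPM with H1047R and vehicle, and at 132, 118 and 129 CPM with empty vector and insulin, against 139, 152 and 143 CPM with empty vector and vehicle, an average change of -0.19 ± 0.03 (adjusted p = 0.000334). NPC1, the membrane protein to which NPC2 hands cholesterol, had an average change of -0.08 and was not called. GRN was at 408, 359 and 379 CPM with H1047R and insulin, against 410, 423 and 416 CPM with H1047R and vehicle. In empty-vector cells it was at 409, 316 and 377 CPM with insulin, against 411, 454 and 439 CPM with vehicle, and library 2 was far below the other 2 insulin libraries. It fell by 0.18 ± 0.04 on average (adjusted p = 0.00542).

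MCOLN1, the calcium channel of the lysosomal membrane whose promoter sites are printed above, was at 21.3, 20.2 and 20.8 CPM with H1047R and insulin, against 24.4, 21.3 and 20.1 CPM with H1047R and vehicle, which overlap. With the empty vector it was at 18.7, 15.7 and 16.1 CPM with insulin, against 21.4, 20.4 and 21.0 CPM with vehicle, and the average change was -0.19 ± 0.06 (adjusted p = 0.0318), a call lost in 9 of 24 alternatives, among them leaving out library 1 or 3 of siRSAD2 empty vehicle, 2 or 3 of siRSAD2 empty insulin, 1 of siRSAD2 H1047R vehicle, or 2 or 3 of siRSAD2 H1047R insulin. CTSA, the carboxypeptidase that also protects the sialidase NEU1, was at 277, 268 and 280 CPM with H1047R and insulin, against 279, 290 and 284 CPM with H1047R and vehicle, and at 280, 259 and 273 CPM with empty vector and insulin, against 303, 312 and 311 CPM with empty vector and vehicle. It fell by 0.12 ± 0.03 on average (adjusted p = 0.00745), a call also lost with unstranded counts. CTSH, an aminopeptidase of low abundance here, rose: it was at 11.0, 11.8 and 10.2 CPM with H1047R and insulin, against 10.4, 10.9 and 9.28 CPM with H1047R and vehicle, and at 13.6, 12.6 and 12.7 CPM with empty vector and insulin, against 9.85, 10.1 and 8.82 CPM with empty vector and vehicle. The groups overlapped with H1047R and not with the empty vector, and the average change was 0.27 ± 0.07 (adjusted p = 0.0139), a call also lost without siRSAD2 empty vehicle library 3 or siRSAD2 H1047R insulin library 2. CTSD, an aspartic protease, and CD63 were the remaining members called, at -0.19 ± 0.05 (adjusted p = 0.023) and -0.10 ± 0.03 (adjusted p = 0.038). CTSD lost the call in 5 of 24 alternatives, among them leaving out library 2 of any siRSAD2 group, and CD63 in 11 of 24, 8 of them with 1 library left out.

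Of the members called lower with insulin on average, 11 had a promoter window and 4 of these (36.4%) held CACGTG, namely CTSA, CTSD, CD63 and MCOLN1. Of the members not called lower, 23 had a window and 6 (26.1%) held it. LAMP1, with 6 matches, had an average insulin change of -0.01, and the windows of GUSB, CTSC, TPP1 and NPC2 held no match. No window was matched for CTSB.

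Taken by vector, insulin changed 7 members with H1047R, 2 higher and 5 lower, where 0.483% of all genes were called higher and 1.99% lower; of genes averaging at least 10 CPM 5.46% were called, and of members 15.9%. With the empty vector it changed 14, 3 higher and 11 lower, where 2.1% of all genes were called higher and 4.19% lower; of genes averaging at least 10 CPM 12.1% were called, and of members 29.5%. The 2 comparisons share no library. They had 6 calls in common, which is 85.7% of the calls with H1047R and 42.9% of those with the empty vector, all 6 in the same direction. The difference between the vectors was called for no member and for 0.0% of all genes, with 5 members and 1612 genes at an unadjusted p under 0.05 (DESeq2 called no member either), so a larger number of calls with the empty vector does not show a different response. The largest differences in insulin's effect, H1047R minus empty vector, were -0.34 ± 0.14 for CTSH and 0.26 ± 0.11 for CTSD (adjusted p = 0.698 each).

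These counts rest on few libraries. With the empty vector, 8 members were called without siRSAD2 empty vehicle library 3, 2 (CTSB and CTSH) when only the 2 compared groups were fitted and 1 (CTSC) without the 3 libraries that stood apart. With H1047R, 3 were called without siRSAD2 H1047R vehicle library 2 and 4 without siRSAD2 H1047R vehicle library 3 or siRSAD2 H1047R insulin library 3, while 9 were called when only the compared groups were fitted and 8 without the 3 libraries that stood apart. Over all genes the order of the vectors turned round with the fit: 573 were called with H1047R and 1457 with the empty vector, but 1272 with H1047R and 520 with the empty vector when only the compared groups were fitted, and 1049 with H1047R and 549 with the empty vector without the 3 libraries.

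**Figure D4:**
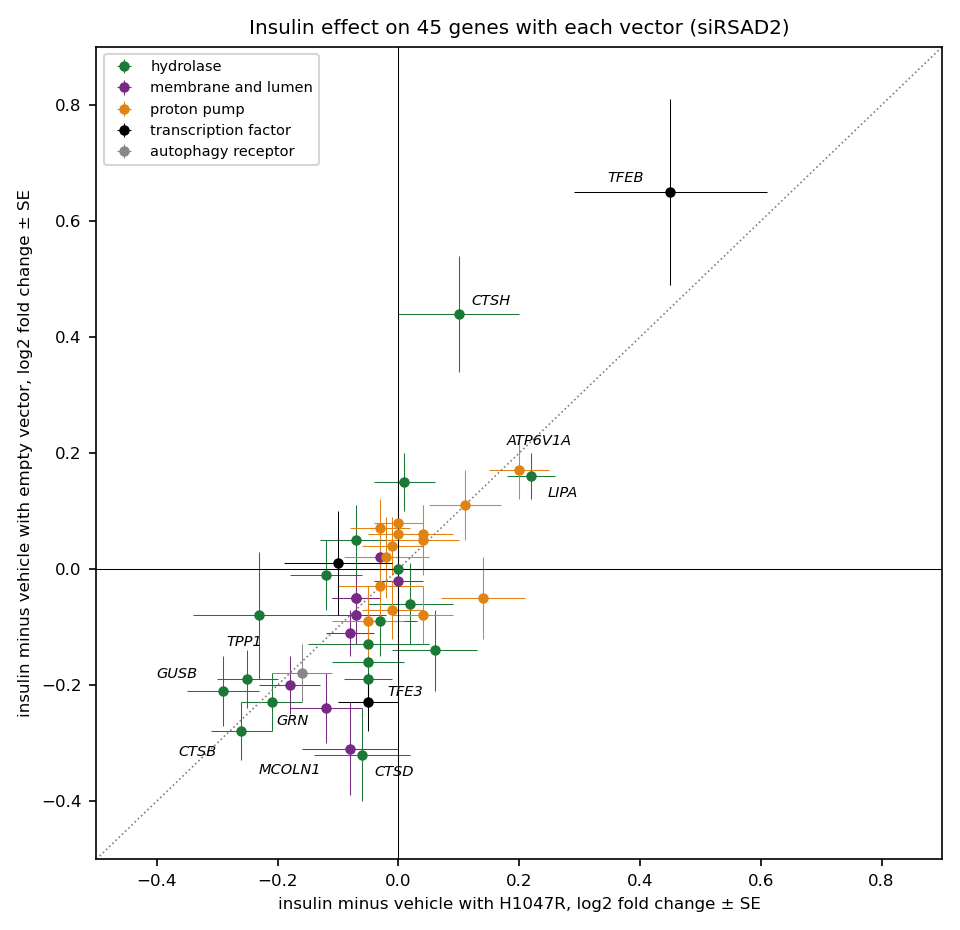
Insulin log2 fold change (± SE) of the 45 members with the H1047R vector (horizontal axis) and the empty vector (vertical axis), coloured by role, with the dotted line marking equal change. CTSB, GUSB and TPP1 lie low on both axes and LIPA high on both, while CTSH lies at 0.44 with the empty vector and 0.1 with H1047R, and the pump subunits lie within 0.2 of 0.

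H1047R changed no member against the empty vector with insulin, where 0.22% of all genes were called higher and 0.0647% lower, and none with vehicle, where 0.621% were called higher and 0.742% lower. At an unadjusted p under 0.05 there were 7 members with insulin and 9 with vehicle, beside 2439 and 2891 of all 23184 genes. DESeq2 called 0 members with insulin, where it called 66 genes higher and 28 lower. It called 1 member with vehicle, where it called 131 genes higher and 193 lower. Averaged over treatments, 4 members were called, 1 higher and 3 lower, where 1.47% of all genes were called higher and 1.25% lower. Of members averaging at least 10 CPM 9.1% were called. The share of all genes at that level was not computed for H1047R, so this count has no background above that floor. GLA, the galactosidase lacking in Fabry disease, was at 52.9, 55.2 and 56.2 CPM with H1047R and insulin, against 50.8, 46.2 and 49.7 CPM with empty vector and insulin, and at 52.3, 55.1 and 56.9 CPM with H1047R and vehicle, against 46.6, 50 and 50.6 CPM with empty vector and vehicle. No H1047R library overlapped an empty-vector library, and the change was 0.16 ± 0.04 (adjusted p = 0.0268), a call lost in 8 of 24 alternatives, 6 of them with 1 library left out. ATP6V1G1, a V1 stalk subunit, changed by -0.18 ± 0.04 (adjusted p = 0.0111), CTSZ, a cysteine carboxypeptidase, by -0.18 ± 0.04 (adjusted p = 0.0165) and TPP1 by -0.17 ± 0.04 (adjusted p = 0.012).

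The vector and the forward-strand share moved together. A term for that share is separated from the vector by 1 empty-vector library alone (siRSAD2 empty insulin library 3). With it none of the 4 members was called. CTSZ and TPP1 turned to 0.04 ± 0.07 and 0.04 ± 0.06. GLA and ATP6V1G1 kept their sign, at 0.13 ± 0.09 and -0.11 ± 0.08, with a larger SE. In siRSAD2 empty insulin library 3 CTSZ and TPP1 were at 104 and 169 CPM, in the range of the H1047R insulin libraries (104 to 109 and 166 to 168 CPM) or next to it. GLA and ATP6V1G1 were there at 49.7 and 105 CPM, outside that range (52.9 to 56.2 and 94.2 to 96.8 CPM). PIK3CA itself was 1.14 ± 0.04 higher with H1047R and 1.21 ± 0.08 with the term. Among insulin libraries of the higher forward-strand share alone, 3 with H1047R against 1 with the empty vector whose spread is taken from the other groups, 0 members were called. Leaving out siRSAD2 H1047R insulin library 3 left 1 member called for the average, where 151 genes were called higher and 119 lower of 23074 tested.

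**Figure D5:**
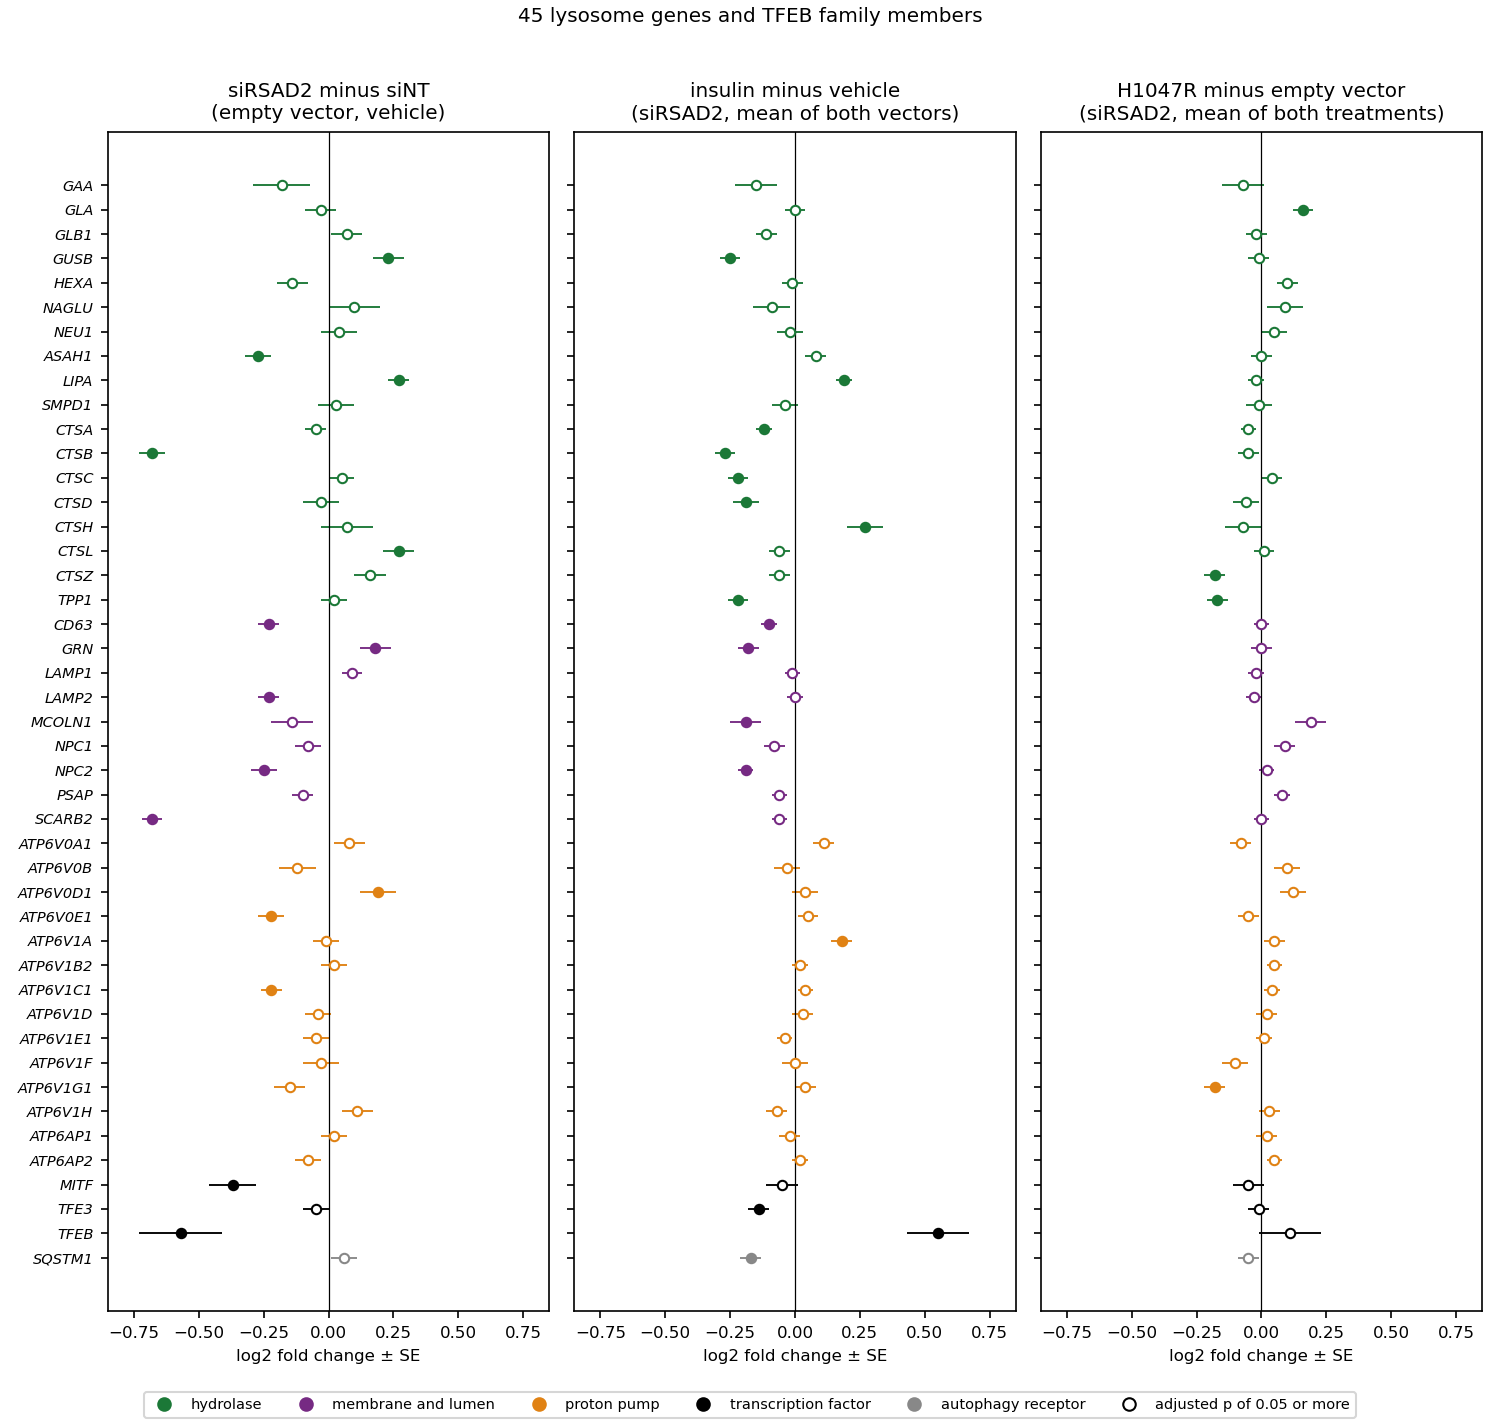
Log2 fold change (± SE) of all 45 members for siRSAD2 minus siNT, insulin minus vehicle averaged over vectors, and H1047R minus empty vector averaged over treatments, with filled points for an adjusted p below 0.05 and colours for roles. Under insulin the filled points left of 0 are hydrolases, membrane or lumen proteins, TFE3 and SQSTM1, and the pump subunits lie within 0.18 of 0.

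Beyond the members, 117 further genes of the same biology were listed and 115 tested. With siRSAD2, 35 changed (30.4%), 13 higher and 22 lower; at 10 CPM or more it was 34.4% of these genes, against 34.3% of all genes at that level, so the count was at the background. LAPTM4A, a 4-pass membrane protein of lysosomes, had the largest fall, at 125 ± 2.53 CPM with siRSAD2 and 447 ± 6.78 CPM with siNT (SD, n = 3 each; -1.84 ± 0.05, adjusted p = 1.92e-21), and its paralog LAPTM4B changed by -0.30 ± 0.05. Of 31 further enzymes and cofactors 3 rose and 6 fell, among them the sulfatase GALNS (-0.43 ± 0.08). Among 15 sorting genes, IGF2R, the large mannose 6-phosphate receptor, rose by 0.32 ± 0.04, while the adaptor GGA2 fell by 0.59 ± 0.05, and 2 others were lower. Of 17 genes that control the TFEB factors and mTORC1 at the lysosome 4 fell and none rose, among them LAMTOR4 (-0.50 ± 0.09), part of the Ragulator anchor of mTORC1, and FNIP2 (-0.26 ± 0.06), a partner of folliculin. Of 23 autophagy genes 5 rose, among them MAP1LC3B (0.25 ± 0.05) and WIPI1 (0.26 ± 0.07), and 5 fell. In the pump, ATP6V0E2 rose by 0.31 ± 0.08, and ATP6V0A4 by 1.57 ± 0.43 at only 1.05 ± 0.252 CPM with siRSAD2 and 0.347 ± 0.146 CPM with siNT.

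With insulin, averaged over vectors, 15 of these 115 genes changed (13.0%), 1 higher and 14 lower; at 10 CPM or more it was 16.1%, against 17.0% of all genes at that level. The cysteine protease CTSF fell by 0.42 ± 0.05 (adjusted p = 2.86e-07), more than any hydrolase among the members, with -0.37 ± 0.07 with H1047R and -0.47 ± 0.07 with the empty vector. Of 23 autophagy genes 6 fell and none rose; with the empty vector WIPI2 and GABARAPL1 changed by -0.24 ± 0.05 and -0.24 ± 0.06. GNPTG, a subunit of the enzyme that makes the mannose 6-phosphate tag, fell by 0.29 ± 0.08 and LAPTM4A by 0.21 ± 0.05 with H1047R. With the empty vector the channel TPCN1 fell by 0.30 ± 0.09 and MCOLN3 rose by 0.36 ± 0.11. YWHAZ, a 14-3-3 protein of the kind that binds phosphorylated TFEB, was the gene that rose on average, by 0.14 ± 0.03 (0.15 ± 0.04 with H1047R and 0.13 ± 0.04 with the empty vector). None of the 7 other pump subunits tested was called with insulin.

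With H1047R and vehicle, 2 of the 115 were called (1.7%), where 0.621% of all genes were called higher and 0.742% lower. GABARAP, which helps build autophagosomes, was at 14.2 ± 2.04 CPM with H1047R and 5.65 ± 0.441 CPM with the empty vector (SD, n = 3 each; 1.34 ± 0.18, adjusted p = 0.00015), and PLBD2, a phospholipase B-like protein, changed by -0.33 ± 0.06 (adjusted p = 0.00427). With the term for the forward-strand share these became 0.19 ± 0.23 and -0.08 ± 0.10, and neither was called.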

How the data were processed

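Per the labels and the study's methods, RNA from 3 independent experiments per group was made into stranded mRNA libraries from 500 ng of total RNA. The authors trimmed paired reads with cutadapt and Trim Galore, used STAR on hg38, and deposited raw gene counts from it for each library (unstranded, forward and reverse), without normalization. Versions of the trimming and alignment tools are not given in the sources used here, and the GENCODE release that the methods name is numbered as a mouse one, while the identifiers are human. Reverse-strand counts were used, and 4 summary entries per library were kept apart. Symbols and coordinates come from GENCODE 44, which held 60357 of 60617 identifiers. Genes averaging at least 1 count per library entered 1 edgeR 4.0.16 fit (R 4.3.3, TMM, quasi-likelihood F test, 15 libraries, 10 residual degrees of freedom), checked on simulated data. Members and lists were chosen with earlier results of these data known. By the rule for naming genes, the factors, SQSTM1 and, per comparison of 2 groups, the 4 called hydrolases, pump subunits and membrane proteins with the smallest p have values per library, and each other list gives up to 2 genes, 1 gene of them not being reported here. LAMP1 and GLA, and the level minimum of 10 CPM, were added after values were seen. Alternatives were RLE factors, other filters, DESeq2 1.42.0, a threshold of 0.001, unstranded counts, fits of the compared groups, a replicate block and leaving out each library. A term for the forward-strand share, split at 6.4%, and leaving out 3 libraries were chosen after seeing the data. Multimapping reads (9.92 to 17.1%) were not counted.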

Additional observations from a re-analysis of the deposited data

How the results depend on the processing

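The count of members called kept within 1.5 times its value under RLE factors, the stricter filter and unstranded counts in each comparison. At a threshold of 0.001 it was 8 for siRSAD2, 1 for insulin with H1047R, 1 for insulin with the empty vector, 6 for average insulin and 0 for average H1047R. With no filter, 2 members were called for H1047R with insulin and 2 with vehicle. Of the 34757 genes then tested, 244 were called higher and 174 lower with insulin, and 285 higher and 422 lower with vehicle. With only the compared groups fitted, 2 were called for H1047R with vehicle and 2 for insulin with the empty vector. Over all genes that fit called 234 higher and 312 lower for H1047R with vehicle, of 23972 tested. For insulin with the empty vector it called 100 higher and 420 lower, of 23370 tested. DESeq2 called 1 member for H1047R with vehicle, and 131 genes higher and 193 lower of 23184. With the 3 libraries that stand apart left out, 1 was called for H1047R with insulin, 4 for H1047R with vehicle and 1 for insulin with the empty vector. With the term for the forward-strand share, 0 were called for average H1047R. Leaving out 1 library at a time gave 12 to 18 for siRSAD2, 3 to 7 for insulin with H1047R, 8 to 17 for insulin with the empty vector, 0 to 2 for H1047R with insulin, 0 to 4 for H1047R with vehicle, 12 to 16 for average insulin and 1 to 5 for average H1047R. The number called over all genes moved with the setting too. For H1047R with vehicle, 254 genes were called higher and 457 lower, of 23264 tested, without siRSAD2 empty insulin library 2. Without siRSAD2 H1047R vehicle library 1 it was 43 higher and 21 lower, of 23235 tested. A move in the members' count is therefore not by itself particular to the members. The cause of these moves was not tested.

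A few values near 0 changed sign. MITF for insulin with the empty vector was -0.01 with unstranded counts, 0.0 with only the compared groups, -0.03 with the forward-strand term and -0.1 with the 3 libraries left out. MITF for H1047R with vehicle was 0.0 with no filter, 0.0 with the replicate block and 0.02 with the 3 libraries left out, and for H1047R with insulin 0.02 with those left out. SQSTM1 for H1047R with insulin was 0.02 with unstranded counts, and TFEB for it -0.13 with the 3 libraries left out. TPP1 and CTSZ for average H1047R were 0.04 each with the forward-strand term. Without 1 library, SQSTM1 for siRSAD2 ran between 0.0 and 0.11, MITF for insulin with the empty vector between -0.05 and 0.07, MITF for H1047R with vehicle between -0.06 and 0.02, and TFEB for H1047R with insulin between -0.06 and 0.1. Over all pairs of siRSAD2 groups, the correlations of same-numbered libraries' deviations lay between -0.127 and 0.156. Those of different-numbered libraries lay between -0.147 and 0.125. Between the insulin groups of the vectors, same-numbered libraries gave 0.156, 0.138 and 0.087, and different-numbered ones only negative values (-0.147 to -0.004). Between the H1047R groups the same-numbered values were negative (-0.127 to -0.025). Whether replicate numbers pair the insulin groups was not tested. With a replicate block, 6 members were called for insulin with H1047R, 14 with the empty vector and 15 for average insulin. For H1047R with insulin, 0 were called with the block. siNT is numbered 4 to 6, so no block could be fitted for siRSAD2.

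On the limits, over 10% of exon bases are shared with a neighbour on the same strand in 3 members: CTSD (27.3%), NAGLU (12.9%) and TPP1 (11.6%). Reads in shared bases were not assigned. GUSB has 18 named pseudogenes, ATP6V1G1 has 7, CTSL has 6, ATP6V0E1 has 4 and ATP6V1E1 has 3, and reads that map to several of them were not counted. H1047R and the forward-strand share cannot be told apart within the vehicle libraries. mRNA was measured, and neither protein, enzyme activity nor the location of TFEB was.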
